A study of Drosophila melanogaster with 3 samples.

Results

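The 260 microRNA (miRNA) genes of Drosophila melanogaster were examined for chromatin occupied by lilli, a protein of the AF4/FMR2 family that is part of the super elongation complex. They were chosen by name alone: every gene whose symbol begins with mir- on arms X, 2L, 2R, 3L, 3R or 4 of the dm6 genome, 260 of 17683 annotated genes. The lists come from chromatin immunoprecipitation with sequencing, with an anti-GFP antibody, on flies that carry lilli with eGFP at its C terminus. All 3 samples are biological replicates of a single group, mixed-sex embryos of 0 to 24 h, with sonicated fragments of 200 to 800 bp. Whole embryos of all ages were pooled, so a peak cannot be assigned to a tissue or an hour, and no mock or input sample was examined here. The authors deposited 6970 optimal peaks, which passed a test of reproducibility between replicates, 30000 pooled peaks and 30000 peaks for each replicate. The pooled and replicate lists reach down into background. Signal is the authors' value for each peak and serves here to order the peaks of 1 list, rank 1 being the strongest. The lists hold no reads, so the depth of each replicate is unknown.

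A miRNA is made from a hairpin within a longer primary transcript. RNA polymerase II copies it either from a noncoding unit of its own or as part of a protein-coding gene, most often in an intron. Drosha trims the hairpin out of the primary transcript and Dicer-1 cuts it to the mature miRNA, while mirtrons reach Dicer by splicing instead. The mature miRNA guides Argonaute to messenger RNAs, chiefly through its seed near the 5′ end, and lowers their translation or stability. The start site of a primary transcript can lie far from the hairpin, so peaks near hairpins and peaks at the start sites of their transcripts are described separately below.

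Mature miRNAs from a selection of loci with a strong or shared peak, near the hairpin or at a host promoter, are shown here by seed. The seed (bases 2 to 8) is in capitals, and the sequences are as annotated by RefSeq on the same assembly. Other such loci, among them mir-14, mir-8 and the mir-310 cluster, are not shown. The first pair shares 1 transcript with the strongest peak near any miRNA gene, and their seed recurs in mir-286. The seed of mir-92a recurs in mir-92b and in mir-310, mir-311, mir-312 and mir-313. The next 5 share the seed of the mir-2 family, whose targets carry the K box sequence and include cell death genes. The last 5 have a seed found in no other annotated miRNA gene.
mir-279 3p: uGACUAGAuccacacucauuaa
mir-996 3p: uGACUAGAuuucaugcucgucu
mir-92a 3p: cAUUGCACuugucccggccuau
mir-2a-1 3p: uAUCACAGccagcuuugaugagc
mir-2b-2 3p: uAUCACAGccagcuuugaggagc
mir-2c 3p: uAUCACAGccagcuuugaugggc
mir-13a 3p: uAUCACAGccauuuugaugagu
mir-13b-1 3p: uAUCACAGccauuuugacgagu
mir-282 5p: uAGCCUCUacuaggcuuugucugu
mir-275 3p: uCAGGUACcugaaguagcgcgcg
mir-305 5p: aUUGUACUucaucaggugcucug
mir-ban 3p: uGAGAUCAuuuugaaagcugauu
mir-277 3p: uAAAUGCAcuaucugguacgaca

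The 201 bp around 4 of the strongest optimal summits near these genes are printed next, as the plus strand of dm6 (RefSeq sequence), because these are the positions that the ranks below refer to. Capitals mark any of 7 words that were searched on both strands: the GAGA factor word GAGAGA, the DRE word ATCGATA, the M1BP word GTCACAC, the Zelda word CAGGTAG, the GATA word AGATAA, the E-box CACGTG and the TATA word TATAAA. The last occurs at mir-279 and at mir-92a, and the windows of mir-282 and mir-275 hold none of the 7. At mir-279 the first T of TATAAA lies at -33 bp from the annotated start of the primary transcript, minus marking upstream. At mir-92a it lies at -187 bp from the nearest start site, one of the gene jigr1.
mir-279, chr3R:29214348-29214548: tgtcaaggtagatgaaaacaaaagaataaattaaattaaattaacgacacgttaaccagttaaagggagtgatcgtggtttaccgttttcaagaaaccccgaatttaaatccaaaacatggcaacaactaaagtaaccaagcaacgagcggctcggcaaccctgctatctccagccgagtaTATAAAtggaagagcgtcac
mir-92a, chr3R:25646935-25647135: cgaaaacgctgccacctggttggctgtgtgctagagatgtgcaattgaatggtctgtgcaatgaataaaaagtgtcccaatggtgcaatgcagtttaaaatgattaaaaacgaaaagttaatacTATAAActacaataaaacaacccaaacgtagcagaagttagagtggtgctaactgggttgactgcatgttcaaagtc
mir-282, chr3L:3250173-3250373: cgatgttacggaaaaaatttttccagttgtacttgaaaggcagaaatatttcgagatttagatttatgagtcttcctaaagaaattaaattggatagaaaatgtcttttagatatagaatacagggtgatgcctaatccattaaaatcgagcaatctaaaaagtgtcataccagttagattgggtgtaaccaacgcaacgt
mir-275, chr2L:7425259-7425459: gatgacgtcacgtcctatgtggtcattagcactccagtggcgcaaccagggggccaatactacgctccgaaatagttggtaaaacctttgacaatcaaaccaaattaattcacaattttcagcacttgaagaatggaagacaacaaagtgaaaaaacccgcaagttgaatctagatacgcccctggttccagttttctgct

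An optimal summit lay within 2000 bp of 65 of the 260 miRNA genes, 25.0%. The same rule found one for 44.4% of the 17423 other annotated genes, for 47.9% of the 13945 protein-coding genes and for 44.3% of the 591 tRNA, snoRNA and snRNA genes. Gene length enters this count: miRNA genes spanned 50 to 174 bp with a median of 92 bp, small noncoding RNA genes had a median of 79.0 bp and protein-coding genes one of 2166 bp. Taking every base of the arms as the middle of an interval of 92 bp, 16.4% of positions had an optimal summit within 2000 bp. The miRNA genes as a class therefore had a lower share than each of the 3 gene classes and a higher share than arbitrary positions, as counts without a test.

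The replicates differed little in this share. Among the strongest 6970 peaks of each replicate, 63 miRNA genes had a summit within 2000 bp in replicate 1, 67 in replicate 2 and 68 in replicate 3, or 25.4% ± 1.02 (SD, n = 3). The share among all other annotated genes was 43.5%, 44.9% and 44.1% in replicates 1, 2 and 3, so the values for miRNA genes and for other genes did not overlap. Of the 65 miRNA genes with an optimal peak nearby, 46 had such a summit in all 3 replicates, 18 in 2 and 1 in 1. Nothing in the labels beyond the word biological says how the embryo collections were separated. The optimal list was itself made from these replicates, so their ranks are not independent evidence for a peak.

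**Figure D1:**
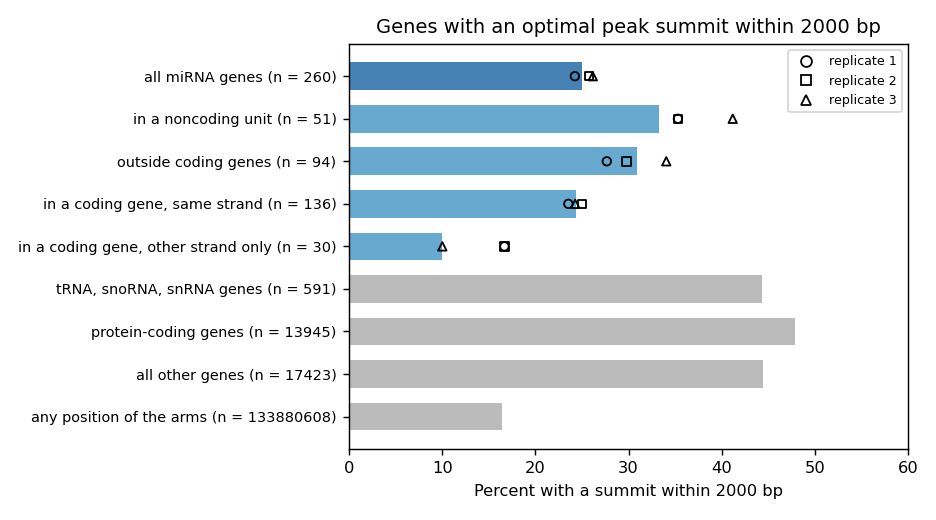
Percent of genes with an optimal summit within 2000 bp (bars, horizontal axis) for all miRNA genes, for miRNA genes by location, and below them for other gene classes and for arbitrary positions of the arms. Open symbols give the strongest 6970 peaks of each replicate; all miRNA genes stand at 25.0%, against 44.4% for all other genes and 16.4% for arbitrary positions.

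In the longer pooled list, 157 miRNA genes (60.4%) had a summit within 2000 bp, against 71.4% of the other genes. Of these, 92 had only lower-ranked summits, and 103 miRNA genes had none in the pooled list. The distance from a miRNA gene to the nearest optimal summit had a median of 5438 bp and reached 2044427 bp at mir-2279. The rule's limit fell among close neighbours: mir-996, mir-983-1 and mir-1012 had their nearest optimal summit 1848, 1932 and 1948 bp away, just inside it, and mir-12, mir-1013 and mir-1005 had theirs 2001, 2050 and 2095 bp away, just outside it. By arm, an optimal summit lay near 12 of 58 miRNA genes on X, 13 of 56 on 2L and 14 of 55 on 2R. The counts were 9 of 31 on 3L, 17 of 58 on 3R and 0 of 2 on 4. Shares of other genes by arm were not counted, so no difference between arms is read from these.

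Neighbouring miRNA genes share peaks, so genes are not separate observations. Joined at gaps of up to 10000 bp on a strand, the 260 genes formed 203 loci, of which 52 (25.6%) had an optimal summit near at least 1 gene. The 22 loci with several genes held 79 genes, and 11 of these loci had a summit. Of the 181 loci with 1 gene, 41 (22.7%) had one. The 65 genes with a summit drew on 67 peaks, and 11 of these peaks served 2 or more miRNA genes.

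Most of the 67 peaks were of ordinary or low strength. Their median signal was 169, against 202 for all 6970 optimal peaks, and their median rank was 4328. Of them 26 (38.8%) ranked within the stronger 3485 optimal peaks, and 6 (8.96%) within the first 697. In all 3 replicates a peak summit was found within 100 bp for 58 of the 67 (86.6%), against 90.0% of all optimal peaks. Among the strongest 6970 peaks of every replicate were 37 of them (55.2%), against 63.5% of all optimal peaks. A few miRNA loci stood far above the rest, and the 20 strongest peaks near miRNA genes all ranked within the first 3485 in every replicate.

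**Figure D2:**
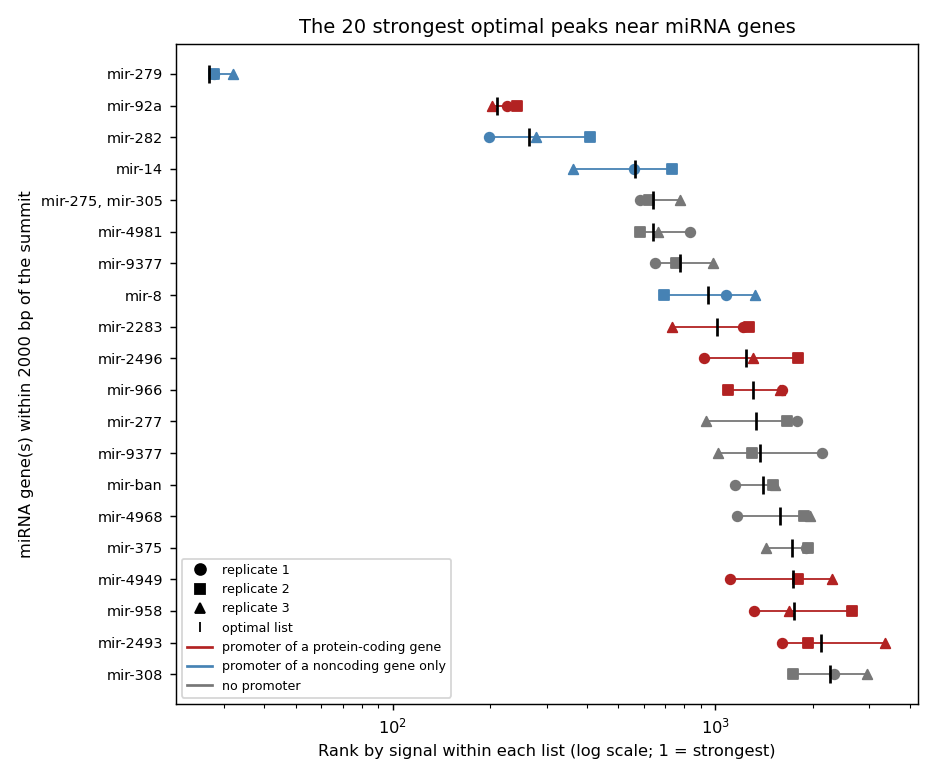
Rank by signal (horizontal log axis) of the 20 strongest optimal peaks near miRNA genes in each replicate (symbols) and in the optimal list (black bars), coloured by the kind of promoter at the summit. The mir-279 peak ranks 27 in the optimal list and between 28 and 32 in the replicates; 14 of the 20 peaks keep ranks within a factor of 2 of each other across replicates.

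Noncoding primary transcripts came first among these. The strongest peak, with rank 27 and a signal of 2316, lay upstream of mir-279, which prevents the formation of carbon dioxide sensing neurons on the maxillary palps. It ranked 28, 28 and 32 in replicates 1, 2 and 3, so the replicates placed it almost identically. Its summit lay at -1137 bp from the 5′ end of mir-279 (chr3R:29215585-29215684, plus strand) and at -114 bp from the start of lncRNA:CR31044, the primary transcript that mir-279 shares with mir-996. The hairpin of mir-996 follows at 2622 bp from that start, beyond the window of this peak, and was counted only through a weak second peak of rank 6635, whose replicate ranks were 7658 in replicate 1, no match in replicate 2 and 6781 in replicate 3. A further optimal peak of rank 646 lay at 5558 bp from the start, past the end of the unit of 5106 bp.

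mir-282 had a peak of rank 264 and signal 881, at ranks 199, 408 and 278 in replicates 1, 2 and 3. It lay at -749 bp from the hairpin and at -321 bp from the last of 3 start sites of its unit, lncRNA:CR43626. Annotated transcripts from that last start site do not contain the whole hairpin. The nearest start site of one that does lies 1432 bp upstream of the hairpin. A weaker peak of rank 3151 lay at -423 bp from the first start site, that of a transcript which contains the hairpin. mir-14, which suppresses cell death and affects fat metabolism, had 3 optimal summits within 2000 bp. All 3 belong to 1 called region, chr2R:9552665-9554485, which also contains the hairpin. The strongest ranked 564 overall and 558, 736 and 363 in replicates 1, 2 and 3, at 104 bp from the start of lncRNA:CR43651. The others ranked 4379 and 3687, at 304 and 1360 bp from that start, so the hairpin at 918 bp lay between summits of the same region.

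mir-8, the fly relative of the miR-200 family and a promoter of body growth through insulin signalling in the fat body, was the only miRNA gene with an optimal summit inside the hairpin gene itself. That peak was weak, with rank 5208 and signal 145, ranks of 4884 and 6206 in replicates 1 and 2, and no summit within 100 bp in replicate 3. The strongest of its peaks ranked 948 overall and 1079, 694 and 1330 in replicates 1, 2 and 3, at -140 bp from the second start site of lncRNA:CR43650. Its unit of 10400 bp and the 2000 bp on either side held 6 optimal peaks in all, 2 of them, of ranks 1760 and 5806, around the first start site.

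mir-275 and mir-305 lie side by side, and mir-305 begins just past the annotated end of the unit that holds mir-275. mir-275 is needed for blood digestion and egg development in mosquitoes, and mir-305 adjusts intestinal stem cells in flies. Their shared peak had rank 641 and signal 594, with ranks of 582, 623 and 774 in replicates 1, 2 and 3. It lay within lncRNA:CR43857, 1539 bp from its start, at -436 bp from mir-275 and -613 bp from mir-305, and at no annotated promoter. The start of the unit had a weaker peak, at -214 bp with rank 2364, whose replicate ranks of 5124, 1446 and 2137 spread more widely. A further peak of rank 2883 lay at -185 bp from a start site of the neighbouring gene muc.

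mir-ban, the growth-promoting and death-suppressing bantam, sits near the far end of lncRNA:CR43334, a unit of 15466 bp. The unit with 2000 bp on either side held 9 optimal peaks, ranked between 965 and 3616. The peak nearest the hairpin, at -1454 bp, ranked 1400 overall and 1151, 1511 and 1530 in replicates 1, 2 and 3. The peak at the distal start site, 13738 bp from the hairpin, ranked 2530 overall and 2185, 3957 and 1971 in replicates 1, 2 and 3. No peak stood far above the others here, unlike at mir-279, where the peak at the start site had a signal of 2316 and the next one 592.

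**Figure D3:**
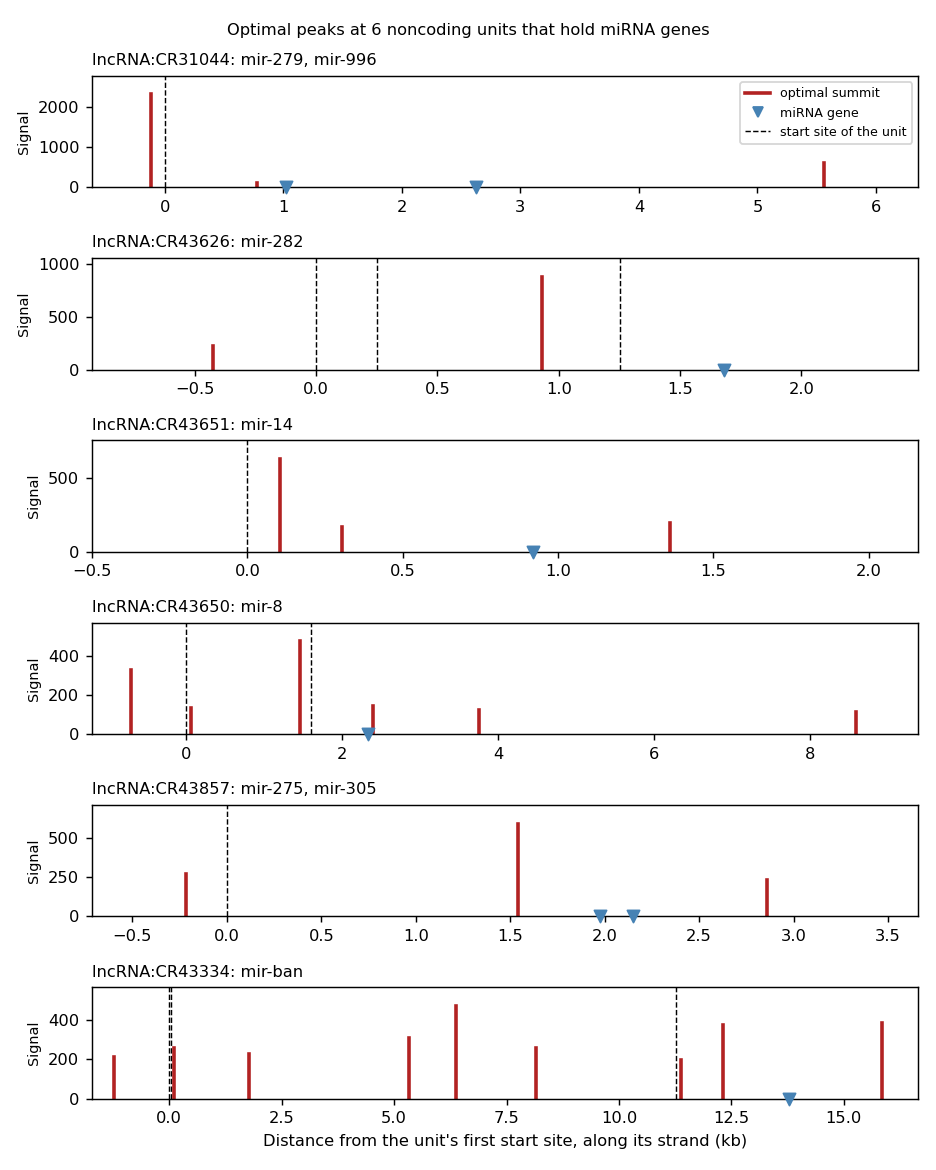
Optimal summits (red lines, height is the authors' signal on the vertical axis) along 6 noncoding units that hold miRNA genes (blue triangles), with annotated start sites as dashed lines and distance from the first start site in kb on the horizontal axis. The vertical axes differ between panels: the mir-279 unit has a summit of signal 2316 at its start, and the mir-ban unit has 9 summits spread along its length.

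At mir-277, which sets the breakdown of branched amino acids and affects lifespan, the peak ranked 1340 overall and 1784, 1661 and 934 in replicates 1, 2 and 3. It lay at -1819 bp from the hairpin and 4442 bp into lncRNA:CR43459, a unit that mir-34 shares. For mir-34 itself the nearest optimal summit was 2733 bp away, outside the window, and the best ranks within it were 14014, 8372 and 5505 in replicates 1, 2 and 3. mir-375 had peaks of ranks 1728 and 3405 at both sides of its hairpin. The first had ranks of 1911, 1940 and 1434 in replicates 1, 2 and 3.

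Other leading peaks lay at promoters of protein-coding genes. The second strongest peak near a miRNA gene, rank 210 with signal 978, lay 529 bp downstream of the 5′ end of mir-92a, which tunes the pattern of trichomes on the leg. It ranked 226, 243 and 203 in replicates 1, 2 and 3 and lay at -211 bp from a start site of jigr1, the gene in whose intron mir-92a sits. That start site lies downstream of mir-92a, so transcripts from it do not contain the hairpin. The strongest peak at a jigr1 start site whose transcripts do contain mir-92a had rank 5006, with ranks of 3727, 11825 and 4034 in replicates 1, 2 and 3. That start site lies 8663 bp upstream of the hairpin, and the nearest such start site lies 6713 bp upstream.

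The remaining coding promoters among the 20 strongest peaks were those near mir-2283 (rank 1014), mir-2496 (1245), mir-966 (1306), mir-4949 (1739), mir-958 (1758) and mir-2493 (2121). The summit near mir-2496 is at -461 bp from a start of PIG-K but nearer, at -132 bp, to one of lncRNA:CR45478. The mir-958 peak, at ranks 1314, 2652 and 1692 in replicates 1, 2 and 3, lay 60 bp from the start of that miRNA's own unit, lncRNA:CR43270, and counts as a coding promoter because its summit is also at -488 bp from a start of Jhbp6. For mir-966 the summit lay at -45 bp from the start of Pfas, a purine synthesis enzyme, whose intron holds the hairpin. mir-4949 lies 187 bp from the start of ATPsynC, a subunit of the mitochondrial ATP synthase. Peaks at no promoter stood near mir-4981 (rank 642), mir-4968 (1589), mir-308 (2269) and mir-9377, which has 2 of the 20 peaks (774 and 1376) in the gene Tis11. Of the 20 peaks, 7 were at coding promoters, 4 at promoters of noncoding genes only and 9 at neither.

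Across all 67 peaks, 27 lay within 500 bp of a start site of a protein-coding gene, 40.3% (95% Wilson interval 29.4 to 52.3%, counting error only), against 53.0% of all 6970 optimal peaks. Of these 27, 18 were promoters of a gene that spans the miRNA on either strand and 9 were those of a neighbour. The 18 include genes on the other strand, such as Top1 at mir-4957. They also include start sites whose transcripts lack the hairpin, such as that of jigr1 near mir-92a. Promoters of noncoding genes only held 6 peaks (8.96%), and 34 (50.7%) lay at no promoter. The interval for coding promoters treats the 67 peaks as independent, although some lie at the same locus, so no depletion is concluded from it. By the strongest summit of each gene, 50 of the 65 miRNA genes (76.9%) had it upstream of their 5′ end, with a median position of -749 bp. Genes that share a peak each count it, and the upstream share was not counted for other gene classes. In the strongest 6970 peaks of replicates 1, 2 and 3 the upstream share was 76.2%, 64.2% and 75.0%, or 71.8% ± 6.62 (SD, n = 3).

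**Figure D4:**
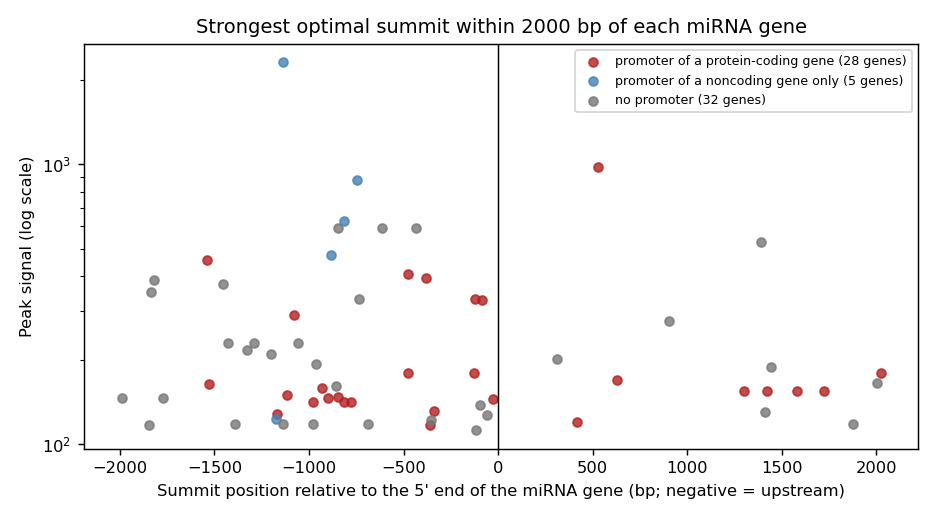
Position of the strongest optimal summit relative to the 5′ end of each of 65 miRNA genes (horizontal axis, bp) against the authors' signal (vertical log axis), coloured by the kind of promoter at the summit. For 50 of the 65 genes the summit lies to the left of 0, upstream, and the median position is -749 bp. Genes that share a peak are drawn separately.

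The counts differed with the place of the hairpin. An optimal summit lay near 29 of 94 miRNA genes outside protein-coding genes (30.9%), near 33 of 136 inside one on the same strand (24.3%) and near 3 of 30 inside one on the other strand only. Among the strongest peaks of replicates 1, 2 and 3, the counts were 26, 28 and 32 of 94 outside coding genes. They were 32, 34 and 33 of 136 inside on the same strand, and 5, 5 and 3 of 30 on the other strand. As shares of these totals, genes outside coding genes came first and those on the other strand last in each replicate. The replicates count the same genes, some of which share loci, so this order gives no measure of the spread between genes. For the 51 miRNA genes in an annotated noncoding unit on their strand the count was 17 (33.3%), with 18, 18 and 21 in replicates 1, 2 and 3. Nearly all of these 51, namely 46 (90.2%), had a summit in the pooled list, against 71.4% of all other annotated genes. The 46 include the 8 genes of the mir-309 cluster, which share 1 pooled summit of rank 26509 of 30000. Of the 78 miRNA genes in no annotated unit on their strand, 17 (21.8%) had an optimal summit and 36 (46.2%) a pooled one. Among the 136, an optimal summit lay near 28 of 100 in introns, 3 of 17 in exons outside coding sequence and 2 of 19 in coding exons. The 30 on the other strand include the 6 neighbouring genes from mir-959 to mir-964, which had no summit in the optimal or pooled list. Shares within 2000 bp were not counted for other genes by place.

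Start sites of the host transcripts gave a further set of peaks. Of the 182 miRNA genes inside an annotated unit on their strand, 79 (43.4%) had an optimal peak at the promoter of a transcript that contains the hairpin, its summit within 500 bp of the start site. Among the 1488 other annotated genes that lie inside such a unit the share was 42.8%, and among the 317 tRNA, snoRNA and snRNA genes inside one it was 79.8%, so the share for miRNA genes was close to that of nested genes in general. For 44 of the 79 no optimal summit lay within 2000 bp of the hairpin. Counting either position, 109 of 260 miRNA genes (41.9%) had an optimal peak, against 45.7% of all other genes and 59.9% of tRNA, snoRNA and snRNA genes counted in the same way. The start sites lay 148 to 159044 bp upstream of the hairpins with a median of 5323 bp. For 61 of the 79 genes (77.2%) the summit lay upstream of the start site. Some of the summits lie nearer to a start of another gene. For mir-9375 the summit is at -498 bp from its host CG9727 but 34 bp from Zif. For mir-9372 it is at -419 bp from its host Dredd but 74 bp from su(sable). The 79 genes drew on 71 distinct peaks, and the upstream share was not counted for promoter peaks in general.

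Counted by host instead, 67 of 128 protein-coding host genes (52.3%) had an optimal peak at the promoter of any start site, against 31.3% of all protein-coding genes. Among the strongest peaks of replicates 1, 2 and 3 the share of coding hosts was 46.1%, 51.6% and 46.1%. Of 37 noncoding host genes 11 (29.7%) had one, with 37.8%, 29.7% and 35.1% in replicates 1, 2 and 3, against 9.84% of the 2520 longer noncoding RNA genes. Hosts were also longer than their class: 14094 bp against 2166 bp in the median for coding genes, and 6436 bp against 706 bp for noncoding ones. Coding hosts had a median of 2.0 start sites against 1.0, while both medians were 1.0 for noncoding genes. The part of length and of the number of start sites in these shares was not tested.

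Several distant host promoters outranked most peaks near hairpins. The promoter of spi, which encodes the EGF receptor ligand Spitz, ranked 136 overall and 153, 137 and 123 in replicates 1, 2 and 3, and it serves mir-2a-1, mir-2a-2 and mir-2b-2, whose hairpins begin 5323 to 6026 bp downstream. The promoter of PAPLA1, a phospholipase, ranked 170 overall and 204, 199 and 134 in the replicates, 17976 bp from mir-4984. Both peaks held their rank across replicates. Weaker promoters served mir-967 in the growth regulator bun (rank 507), mir-965 in the chromatin remodeller kis (1683), mir-190 in the talin gene rhea (4150) and mir-7 in HnRNP-K (5512).

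Besides the units of mir-275, mir-282, mir-ban and mir-996 described above, noncoding units with a promoter peak outside the window of their hairpin were lncRNA:Hsromega, the heat shock RNA that holds mir-4951, with rank 1096 overall and 1601, 973 and 1092 in the replicates, lncRNA:CR43314 for mir-bft and lncRNA:CR44206 for mir-184. mir-bft is bereft (mir-263a), which protects sense organ bristles from cell death. Its promoter peak ranked 4605 overall and 3463, 5910 and 4673 in replicates 1, 2 and 3, at 17591 bp from the hairpin. The mir-184 promoter peak, 7834 bp from its hairpin, ranked 6806 overall and 3824, 9180 and 9186, so it was within the strongest 6970 peaks of replicate 1 only.

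Grouped by known role, the miRNA genes differed widely in their peaks. Of 86 names in 10 groups 84 matched a symbol, and 24 of these, at 14 loci, had an optimal summit within 2000 bp. Among the 176 miRNA genes in no group the count was 41 (23.3%). The groups were written with earlier results of these data known, and the counts describe them without a test.

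The mir-2 family and its relatives with the K box seed had optimal summits near 8 of 10 genes, with 8, 5 and 7 in replicates 1, 2 and 3. They stem from 4 loci. Beside its spi promoter, the trio in the spi intron had a weak peak of rank 6541 near the hairpins, with ranks of 5351, 8936 and 5923 in replicates 1, 2 and 3. mir-2c, mir-13a and mir-13b-1 shared 2 peaks inside lncRNA:CR45911, of which the stronger ranked 2953 overall and 2211, 3190 and 3630 in the replicates. mir-308 had a peak of rank 2269 (2336, 1743 and 2959 in the replicates) and another at the promoter of its host RpS23, a ribosomal protein gene, of rank 3591. mir-13b-2, in the chaperonin gene CCT2, had one of rank 6569 with 6238, 5960 and 15832 in the replicates.

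The 2 genes of this group without an optimal summit were mir-11 and mir-2b-1. mir-11, which restrains the cell death triggered by its host E2f1, had a best pooled rank of 17180, but the E2f1 promoter 10502 bp upstream had an optimal peak of rank 4263, with 3164, 3317 and 14406 in the replicates. mir-2b-1 had only a pooled peak of rank 27612 and a peak in replicate 3 of rank 18849. By seed, 8 of the 14 miRNA genes with a product that carries the mir-2 seed had an optimal summit. The 6 without were these 2, mir-5 and the 3 copies of mir-6.

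Growth, metabolism and ageing genes had optimal summits in 6 of 11 cases, with 6, 5 and 7 in replicates 1, 2 and 3, and pooled ones in 10. The 6 were mir-8, mir-14, mir-277, mir-275 and mir-305, described above, and mir-276a, which acts in olfactory memory. The mir-276a peak lay at 33 bp from the start of lncRNA:CR46006 and ranked 6258 overall and 5972, 11629 and 5211 in the replicates. Its paralog mir-276b had a best pooled rank of 9813 (9897, 8703 and 24818 in the replicates), mir-184 one of 15635 (12623, 17605 and 11691) and mir-278 one of 12588 (17983, 14823 and 11294).

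Of 8 matched genes for neurons and sense organs, mir-279 and mir-996 had optimal summits, through their common unit. mir-124, abundant in neurons, had no optimal summit and a best pooled rank of 13797, with 7696, 15272 and 11273 in the replicates. mir-263b ranked 10374 at best, with 10618, 8791 and 23390. No list held a summit within 2000 bp of mir-137. mir-7, which acts in photoreceptor determination, had a best pooled rank of 17655 and 12194, 24156 and 12546 in the replicates. Its optimal peak lay at the HnRNP-K promoter, with ranks of 6748 and 3098 in replicates 1 and 2 and no match in replicate 3.

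The muscle miRNA genes had no optimal summit within 2000 bp, 0 of 3. mir-1, which is required for muscle growth, had 7 pooled summits within 2000 bp, the best at rank 7695 and at 7229, 7895 and 6658 in replicates 1, 2 and 3, which left it below the optimal list and within the strongest 6970 peaks of replicate 3 only. mir-133 had none in the pooled list, and ranks of 24029 in replicate 1 and 13524 in replicate 3. mir-92b, which limits Mef2 in muscle, had a best pooled rank of 10529 with 13926, 8595 and 12575 in the replicates. The jigr1 promoter peak of rank 5006, 13555 bp from mir-92b, serves it as well as mir-92a.

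In the Hox complexes, mir-10 had an optimal summit at -355 bp with rank 6296, which ranked 5033, 6482 and 28435 in replicates 1, 2 and 3, close to the end of the list in replicate 3. The best rank within 2000 bp in replicate 3 was 5318, from another summit. mir-iab-4 and mir-iab-8 are read from opposite strands of the same hairpin in the Bithorax complex and repress Ubx. They share their best peak, of pooled rank 7216 and of ranks 13726, 6377 and 5937 in the replicates. They were within the strongest 6970 peaks of replicates 2 and 3 but not of replicate 1, and not in the optimal list.

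A pair of miRNA loci tied to developmental transitions had no optimal summit near any gene: the mir-309 cluster and the let-7 complex. The 8 hairpins of the mir-309 cluster, which help to clear maternal messenger RNAs when the zygotic genome is switched on, had 1 pooled summit near them, at rank 26509 of 30000. The ranks near mir-309, mir-3 and mir-286 were 19335 in replicate 2 and 21725 in replicate 3, with none in replicate 1, and the nearest optimal summit was 8125 bp from mir-309. mir-100, mir-let7 and mir-125, the let-7 complex that acts at metamorphosis, had no summit in the pooled list, and in the replicates only mir-125 had one, at rank 28573 in replicate 1.

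Of the mir-310 cluster, mir-310, mir-311, mir-312 and mir-313 had an optimal summit, the same peak of rank 4836 at -407 bp from a start of the neighbouring gene qsm. Its summit was matched at ranks 8944, 5026 and 4257 in replicates 1, 2 and 3, and it lay downstream of the hairpins, at 1301 bp from the 5′ end of mir-310. mir-2498, mir-991 and mir-992 were 2170, 2208 and 2098 bp from an optimal summit, outside the window.

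Testis-expressed clusters had optimal summits near 2 of 17 genes. mir-982 and mir-303 shared a peak of rank 4022, at 4808, 5851 and 3377 in the replicates, which lay at -40 bp from the start of CG3626 on the other strand. mir-983-1 shared it too, but the listed name mir-983 matched no symbol. Neither the largest cluster, 12 genes around mir-972 on X, nor the 6 genes from mir-959 to mir-964, mir-960 and mir-961 among them, had a summit in the pooled list. Mirtrons had 1 of 14: mir-1012, at 1948 bp, with ranks of 4213, 5328 and 5064 in the replicates. A host promoter peak served 6 mirtrons, among them mir-1003 (rank 1277) and mir-1005 (rank 2100), whose hairpins had best pooled ranks of 29922 and 29311. mir-1004 had a best pooled rank of 9245.

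**Figure D5:**
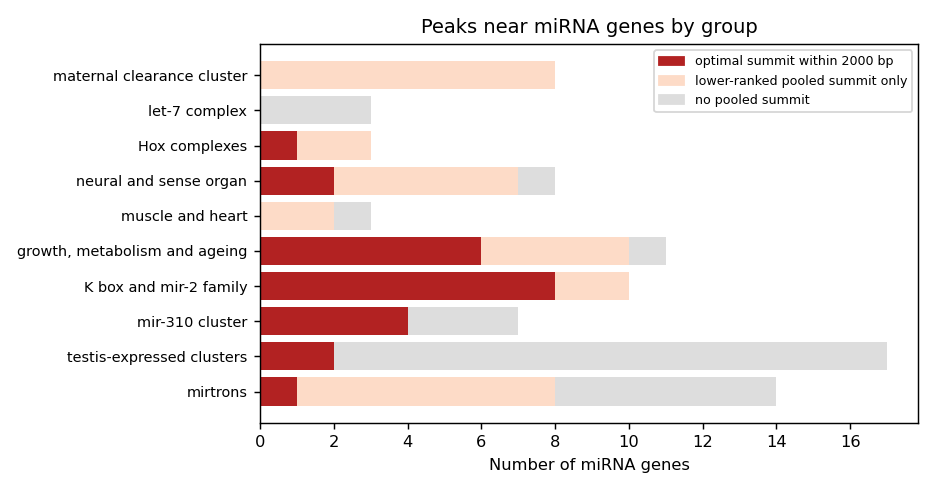
Number of miRNA genes (horizontal axis) in 10 groups with an optimal summit within 2000 bp (red), with only a lower-ranked pooled summit (pale) or with neither (grey). The mir-2 family has 8 of 10 in red, and the mir-309 cluster, the let-7 complex and the muscle genes have none.

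The 7 words were counted at the summits and compared with all optimal peaks. Within 100 bp of the 67 summits, TATAAA occurred in 34.3%, against 33.9% of all optimal peaks. GAGAGA occurred in 10.4% against 9.61%, and ATCGATA in 10.4% against 11.0%. AGATAA occurred in 11.9% against 13.7%. GTCACAC occurred in 6 peaks, 8.96% (95% Wilson interval 4.17 to 18.2%) within 100 bp, against 4.3% of all optimal peaks, a value inside the interval. All 6 lay within 50 bp of the summit, where 2.01% of all optimal peaks hold the word, a value below the interval. CAGGTAG and CACGTG occurred in 2 peaks each, 2.99% (0.822 to 10.2%). For CAGGTAG all optimal peaks had 0.832% within 100 bp and, below the interval, 0.416% within 50 bp, and for CACGTG 2.3% and 1.05%. The intervals are not adjusted for the 7 words or for the choice of window, and cover counting error only. They treat the 67 peaks as independent, although some lie at the same locus, so no enrichment is concluded from them. G and C made up 38.6% ± 11.1 of the 51 bp around the summits near miRNA genes, against 35.4% ± 11.1 for all optimal peaks (SD over peaks).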

How the data were processed

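Signal values and -log10 q-values are the authors' own per peak in the deposited lists; the latter were not used. Per the text files deposited beside them, each replicate list was made against a control alignment, the pooled list from all alignments, and the optimal list from the other lists by irreproducible discovery rate. Which aligner and caller made them is not given in the sources used here. The 6970 optimal peaks were checked to be the strongest 6970 pooled peaks.

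A summit was the peak start plus the deposited offset, in 1-based dm6 coordinates. Genes came from Ensembl release 115, without transposable elements and without the annotation's separate records of mature miRNAs. Summits within 2000 bp of a gene were counted, promoters were 500 bp around start sites, and replicate ranks came from the strongest peak within 100 bp. RefSeq gave 481 mature sequences, and its hairpins had the same coordinates as Ensembl's for 260 of 260 genes. mir-let7 and mir-ban met the naming rule. With 1 group, no test was made. The counting was tested on simulated data.

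Members, groups and words were chosen with earlier results of these data known. Named miRNA genes were those nearest the 20 strongest peaks, group members with an optimal summit, up to 3 without in alphabetical order, and those with a summit inside. Host genes, distant promoters, genes at the window's limit, mir-2279, mir-34, mir-7, mir-bft and other members were named after their values were seen. Alternatives covered distance, peak number, peak middle, promoter window, locus gap, match distance, word window and leaving out replicates. Tools were Python 3.11.15, numpy 2.4.6, scipy 1.17.1 and matplotlib 3.10.9.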

Additional observations from a re-analysis of the deposited data

How the results depend on the processing

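The number of miRNA genes with an optimal summit followed the window: 21 at 500 bp, 38 at 1000 bp and 122 at 5000 bp. It was 25 for the stronger 3485 peaks and 38 without peaks at coding promoters, but 66 by peak middle. The pooled count at 500 bp was 85, and the mean over replicates was 21.7, 39.7 and 125 at 500, 1000 and 5000 bp. The upstream share was 62.3% at 5000 bp. Within 50 bp of summits, GAGAGA and AGATAA were each in 2.99% of peaks and TATAAA in 20.9%.

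Leaving out a replicate kept only optimal peaks found among the strongest of both others (4828 to 5124 peaks), which is also a stricter set. The count was then 41 to 48 of 260 miRNA genes, with 41 without replicate 3 and 42 without replicate 2. It was 19 to 24 outside coding genes (19 without replicate 2 or 3), 19 to 22 inside on the same strand (19 without replicate 3, 21 without replicate 2), and 15 to 17 of the grouped genes (15 without replicate 3). The share at coding promoters was 35.6 to 44.7%. In all, 28 recomputed values stayed within 1.5 times the reported count or within the error of the reported share, and 20 did not.

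Chosen after seeing the data, promoter windows of 250 and 1000 bp gave 63 and 91 miRNA genes with a peak at a transcript start, and leaving out replicates 55 to 59. No paired analysis was possible because there was 1 group. The lists hold no reads, so weak peaks in whole embryos could not be weighed by depth.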

Other observations

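Split by symbol, a choice made after the values were seen, 39 of 134 miRNA genes with a number below 1000 or a name had an optimal summit within 2000 bp (29.1%), against 26 of 126 with a number of 1000 or higher (20.6%). In replicates 1, 2 and 3 the shares were 26.1%, 28.4% and 31.3% for the low numbers and names, and 22.2%, 23.0% and 20.6% for the high numbers. Of the 36 peaks near the low-numbered and named genes 11 (30.6%) lay at coding promoters, against 16 of 31 (51.6%) for the high numbers.

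Of the miRNA genes, 4 had summits among the strongest 6970 peaks of 2 replicates without an optimal one: mir-9373, mir-955, mir-iab-4 and mir-iab-8. A further 15 had one in a single replicate, among them mir-1, mir-9a and mir-34.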
